A study of Mus musculus with 82 samples.

Results

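The transcripts described here are 151 genes typed as lincRNA (long intergenic noncoding RNA) in the deposited expression table, out of 4991 genes of that type. Each has 10 or more counts in 10 or more of 82 libraries, and the imprinted-cluster transcripts Meg3, Rian, Mirg and A730046J19Rik were left out by name. The members were thus chosen by their counts without regard to position, so how widely and how highly they were detected is given as a description. In all, 153 lincRNAs met the detection rule and 2 of the named exceptions were among them, while 2448 lincRNAs had no count in any library. At the edge of the rule, 10 members had exactly 10 such libraries, among them Gm15328 (434 counts in all), 5430416N02Rik (424) and Gm37233 (355). Another 11 lincRNAs had exactly 9 and stayed out, among them 4930480K23Rik (316 counts), C920006O11Rik (308) and AI480526 (294).

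Every library came from 1 hexagon of tissue cut by laser from the suprachiasmatic nucleus (SCN) of C57BL/6 mice aged 8 weeks. The hexagons lay on a grid with a largest radius of 40 µm, on sections stained with cresyl violet, and libraries were made with Smart-seq2 and Tn5. There was no treatment. The groups are 9 sections along the anterior-posterior coordinate, numbered from its lowest value, with 4, 6, 12, 14, 12, 14, 13, 6 and 1 hexagons, and positions within a section by a dorsal-ventral and a medial-lateral coordinate. The labels give these coordinates no unit and do not say which end is which, and no animal, sex or time of collection is named. Hexagons of 1 tissue section come from 1 animal, and sections may share an animal too. The p-values over hexagons below are therefore too small as statements about animals. They measure only the spread between hexagons.

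Long noncoding RNAs are transcribed and spliced much like messenger RNAs but encode no known protein. Some stay in the nucleus and help to build nuclear bodies, such as Malat1 in speckles and Neat1 in paraspeckles. Others act in the cytoplasm, such as Norad, which binds Pumilio proteins, and others are mainly the precursors of microRNAs or small nucleolar RNAs. Some start close to a developmental transcription factor gene and can share its expression pattern. The SCN, at the base of the hypothalamus, sets the daily rhythms of the body, with Vip neurons in its core and Avp neurons in its shell.

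Total counts ran from 11905 to 2843366 per library, with a median of 542267.5. The number of members with 10 or more counts in a library ran from 3 to 114 (median 55) and followed depth, with r = 0.91 against the log total over 82 libraries. Libraries with less than the median total divided by 3 are called low-depth libraries below, and these 5 lie in sections 4, 5, 6 and 7. In a piece of tissue, fewer cells of a type and less RNA per cell cannot be told apart. All SCN markers of the list used here were detected, and the Y-linked genes Ddx3y and Eif2s3y had counts in all 82 libraries, while Xist had 99 counts in all, in 15 libraries. Besides section, the first letter of a label, read here as a library set, follows the anterior-posterior order. There are 8 sets, 5 of them in 2 neighbouring sections, and 4 sections (4 to 7) hold 2 sets each, so section and library set are separable only in part.

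Most members were scarce, and only a few had high values. The median member had a mean of 4.60 RPKM (reads per kilobase of gene, scaled to library total), against 7.90 RPKM for the 11294 protein-coding genes that met the same rule. It reached 10 counts in 21 libraries, against 59 for those coding genes. The highest was Gm42418, at 24752 ± 4194 RPKM (SD, n = 82). It lies on chromosome 17 (chr17:39846958-39848788, GRCm38, plus strand), opposite an annotated ribosomal RNA gene, and 94.9% of its 50-base words, read on either strand, also occur in that gene. Reads from those words fit both genes, so counts of Gm42418 may be of ribosomal RNA. Gm26917, the neighbour of Gm42418 on the same strand (chr17:39843013-39846341), had 1491 ± 657 RPKM. Next came Malat1 with 741 ± 361 RPKM, the Rik transcript 6330403K07Rik with 645 ± 147, Gm10076 with 339 ± 75.2 and the mouse Norad, named 2900097C17Rik in the files, with 148 ± 29.4. Lhx1os (83.1 ± 73.7), Tmem250-ps (81.1 ± 21.9), Gm26945 (76.4 ± 34.5) and Gm39469 (63.6 ± 38.9) closed the 10 highest by mean RPKM. By mean ± SD, neighbours in this order overlap, except Gm42418 with Gm26917, 6330403K07Rik with Gm10076 and Gm10076 with Norad. The means of Lhx1os, Tmem250-ps, Gm26945 and Gm39469 lie within the spread of Lhx1os.

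**Figure D1:**
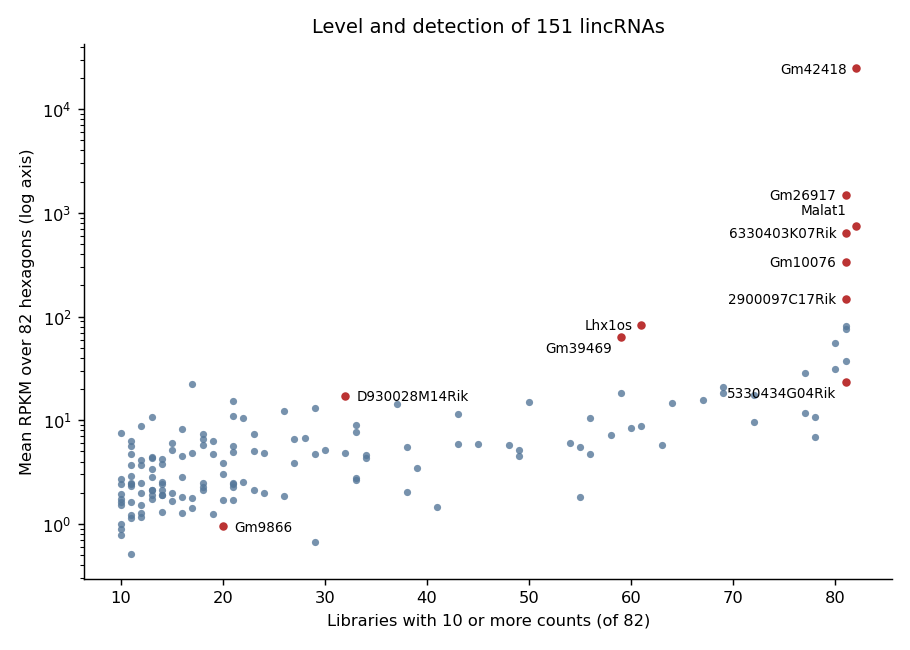
Mean RPKM over 82 hexagons (log axis) against the number of libraries with 10 or more counts, for each of the 151 lincRNAs (points), with some named members in red. Most points sit under 10 RPKM, and 12 members had 10 or more counts in at least 80 libraries.

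Together the members held 5.91% of all counts, and Gm42418 alone held 4.49%. Gm42418, Malat1 and Gm26917 made up 91.4% of all member counts, so a share of lincRNA reads in these libraries is mainly a share of those transcripts. Summed over each section, Gm42418 held 5.72% of counts in section 1, 4.22% in section 7 and 3.45% in section 8. Its anterior-posterior slope of -0.14 log2 per 100 coordinate units (SE 0.03) did not pass edgeR's test (adjusted p = 0.0765), while DESeq2 gave -0.15 with adjusted p = 0.0410. Between hexagons the median member varied more than the median coding gene, with a biological coefficient of variation of 1.23 against 0.676. Among genes of like total counts the gap was small. It was 1.64 against 1.66 for genes under 500 counts, 1.13 against 0.986 for those of 500 to 2000, and 0.523 against 0.481 above 2000. The highest coefficients belonged to 4930403P22Rik (2.36), Gm26521 (2.35), Gm37233 (2.28), 9330102E08Rik (2.21) and Gm44053 (2.19), each with a median of 0 CPM (counts scaled to library total). The lowest belonged to Norad (0.205), Gm10076 (0.215), 6330403K07Rik (0.231), Tmem250-ps (0.283) and Gm42418 (0.284).

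The label of lincRNA held only in part against a later annotation. Of the 151 members, 150 were found in GENCODE M21 on GRCm38 and 143 of these are still typed lincRNA there. The member 6330403K07Rik is typed protein-coding. An exon of 60 members overlaps an exon of another gene, in 41 cases on the opposite strand, and the strand setting of the counting is not given in the sources used here. Reads of those members cannot be assigned with certainty. A further limit is shared sequence: 13 of 150 members share over 25% of their 50-base words with another gene, and 57 share none. Gm26825 shares 81.8% with the heat shock gene Hspa8, Gm10076 shares 69.9% with the ribosomal protein gene Rpl41, and Gm26593 shares 100% with Gm5124.

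Gm27000 is the clearest case of a member whose counts may belong to a gene that was left out by name. A run of 680 bases of its 842-base transcript is identical to Meg3, and 93.7% of its 50-base words occur there. The start of that run is shown because any read from it fits both genes. It is 80 bases of the Gm27000 transcript in GENCODE M21, on the minus strand at chrX:88760071-88760150 (GRCm38).

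Gm27000: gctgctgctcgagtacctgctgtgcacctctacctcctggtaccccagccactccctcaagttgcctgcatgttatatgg

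Over 82 hexagons, after section means were removed, log2(CPM + 1) of Gm27000 and Meg3 had r = 0.57, and r = 0.63 over the 77 hexagons that are not low-depth. Correlations here and below are descriptions, since hexagons share depth and library set and, within a section, an animal. Gm7292 is a similar case, with 77.5% of its words in Norad, yet its r with Norad was 0.20.

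Along the medial-lateral coordinate 3 members changed by edgeR's quasi-likelihood test with Benjamini-Hochberg adjustment over all 11469 genes tested, at 0.05. That is 3 of 151, or 1.99%, beside 1.38% of all genes tested. Slopes are log2 changes per 100 coordinate units at a fixed section and dorsal-ventral coordinate. Malat1 fell with the coordinate, and Norad and the little-known Gm9866 rose. The median slope of the members was -0.04, with 89 of 151 negative, against a median of -0.00 over all genes. The higher calls were 2 of 151 members, beside 0.820% of all genes, and the lower call 1 of 151, beside 0.558%. At an unadjusted p under 0.05, 20 members were counted (13.2%, against 11.7% of all genes), 6 higher (6.24% of all genes) and 14 lower (5.46% of all genes). DESeq2 called 6 members, beside 3.20% of all genes, namely these 3, 5031425E22Rik, Lhx1os and Mir670hg.

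Malat1 (chr19:5795690-5802672, minus strand) is a nuclear RNA of splicing speckles and was seen in every library. At low medial-lateral coordinates (1100 to 1228, 27 hexagons) it ran from 2865 to 8268 CPM with a median of 5561. In the middle hexagons (1236 to 1342, 28 hexagons) the range was 2258 to 10806 CPM with a median of 4631. At high coordinates (1348 to 1517, 27 hexagons) it was 1271 to 7550 CPM with a median of 4501. The 3 ranges overlap widely, and the slope was -0.21 (SE 0.05, edgeR adjusted p = 0.0134), negative in 7 of 8 sections. The call was lost without section 5 or without section 7, without the low-depth libraries (slope -0.19, adjusted p = 0.0739), and with library set as a further factor (slope -0.19, adjusted p = 0.183).

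Norad (chr2:156388065-156392979, minus strand) is a cytoplasmic RNA with repeated binding elements for Pumilio proteins, which repress messenger RNAs. Its level was among the steadiest of all members. It had 295 to 956 CPM (median 640) at low, 434 to 977 (median 719) at middle and 574 to 1278 (median 799) at high medial-lateral coordinates. The ranges overlap, and the medians are ordered opposite to those of Malat1. The slope was 0.12 (SE 0.03, edgeR adjusted p = 0.0265), positive in 6 of 8 sections. Leaving out section 3, 5, 6 or 7 ended the call, as did leaving out the low-depth libraries (slope 0.10, adjusted p = 0.0596) or adding library set as a factor (slope 0.11, adjusted p = 0.225).

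The Pumilio element was searched as TGTANATA on the transcript strand, because it is what sets Norad apart as a sequence. The 4915-base transcript holds 11 of these elements, or 2.24 per kilobase, and 0 on the other strand. Among the 129 members of 1 kb or more this density ranks behind only the related Gm7292 (3.56 per kilobase), and 78 of the 129 hold none. The stretch below is 120 bases of the GENCODE M21 transcript (bases 1512 to 1631, chr2:156391349-156391468, minus strand), with 2 elements in capitals.

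2900097C17Rik: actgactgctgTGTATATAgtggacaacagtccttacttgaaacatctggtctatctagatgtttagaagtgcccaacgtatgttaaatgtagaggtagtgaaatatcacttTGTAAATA

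Gm9866 (chr12:27050950-27160633, minus strand) is a long spliced transcript whose nearest coding gene is Sox11, 173631 bases away. It was at 0 CPM in 36 of 82 hexagons. At low medial-lateral coordinates 17 of 27 hexagons were at 0 and the median was 0 CPM, with a highest value of 50.7. In the middle 13 of 28 were at 0, the median was 1.51 and the highest value 58.6. At high coordinates 6 of 27 were at 0, the median was 15.8 and the highest value 104 CPM, in replicate 11 of section 7. So Gm9866 was detected more often and at higher levels at high coordinates, but every range begins at 0. The slope was 1.17 (SE 0.31, edgeR adjusted p = 0.0341), positive in 7 of 8 sections. The call ended when section 2, 3, 6 or 7 was left out and when library set was added as a factor (slope 1.17, adjusted p = 0.201), and was kept without the low-depth libraries (adjusted p = 0.0391).

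**Figure D2:**
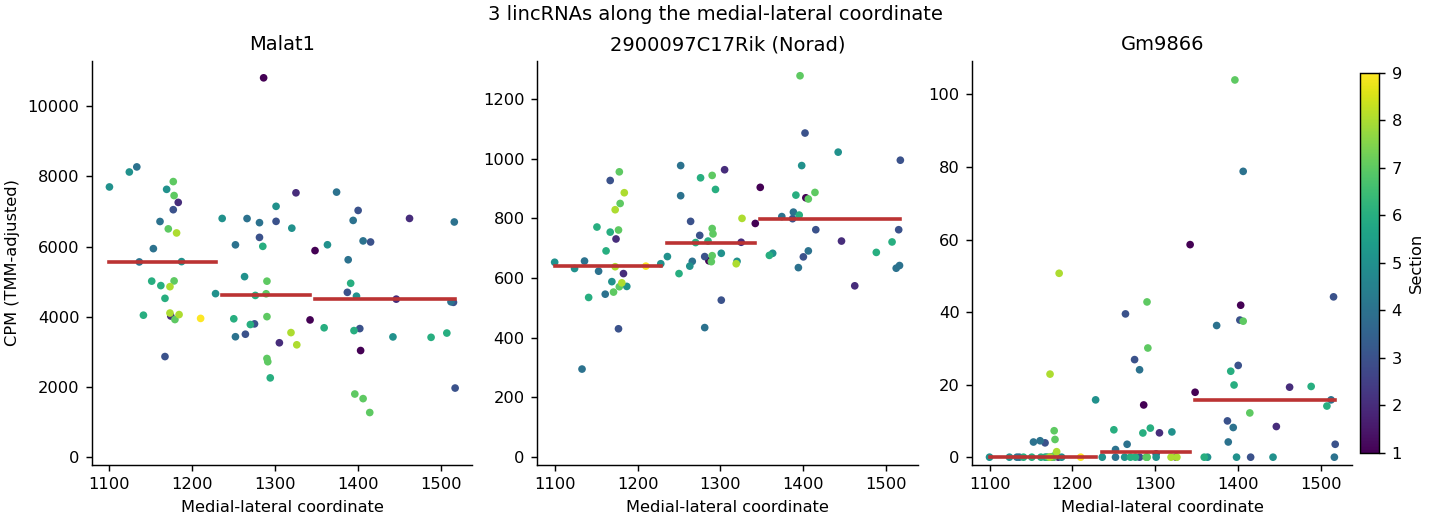
CPM of Malat1, 2900097C17Rik (Norad) and Gm9866 in each of 82 hexagons (points, coloured by section) against the medial-lateral coordinate, with red bars at the median of the hexagons of low, middle and high coordinate. The medians fall from 5561 to 4501 CPM for Malat1, and rise from 640 to 799 for Norad and from 0 to 15.8 for Gm9866.

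Malat1 and Norad moved oppositely from hexagon to hexagon within sections, with r = -0.56 over 82 hexagons and -0.53 without the low-depth libraries. Only section means were removed, so their opposite medial-lateral slopes are still part of this r. Malat1 was the gene most opposite to Norad of all those tested. The gene most like Malat1 was Meg3 (r = 0.74, and 0.75 without the low-depth libraries), followed by Celf3 (0.71), a splicing regulator of neurons, and Auts2 (0.70). The most opposite to it was Cplx1 (-0.75), the complexin of synaptic vesicle release. The genes most like Norad were Ndrg4 (0.73) and the mitochondrial energy genes Atp5b (0.66) and Ndufv2 (0.65).

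Slopes in several lists of cell type markers leaned to 1 side along the same coordinate, though few of the markers passed. Of the 11 SCN markers, all 11 had negative medial-lateral slopes and 4 passed as lower. Their summed level was 525 to 18428 CPM (median 5107) at low and 593 to 14495 CPM (median 2685) at high coordinates. All 7 oligodendrocyte markers had positive slopes, with none passing, and sums of 0 to 7408 CPM (median 1342) at low and 365 to 22270 CPM (median 1955) at high coordinates. All 7 astrocyte markers had positive slopes with 1 passing, at summed medians of 2290 and 2847 CPM, and 6 of 7 neuron markers did so with 1 passing, at 3074 and 3697 CPM. Both tested markers of meningeal fibroblasts passed as lower, with summed medians of 5.24 and 0 CPM. Negative slopes were found for 2 of 4 endothelial and mural, 1 of 5 microglia and 2 of 2 oligodendrocyte precursor markers tested, with none passing. In none of these lists was a marker at 0 in a whole coordinate group. The part of these cell types in the slopes of Malat1, Norad and Gm9866 was not tested. Library set also followed this coordinate in the sections that hold 2 sets. In section 4 set C lay at 1133 to 1406 and set D at 1512 to 1516, in section 5 set D at 1100 to 1363 and set E at 1398 to 1442, in section 6 set E at 1141 to 1276 and set F at 1285 to 1507, and in section 7 set F at 1171 to 1178 and set G at 1178 to 1414.

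Nuclear-body and X-inactivation RNAs were represented by 5 members. Neat1, the scaffold of paraspeckles, had 1.45 ± 1.83 RPKM, and Miat, a nuclear RNA of neurons, had 5.76 ± 4.35 RPKM. Jpx and Ftx, both from the X-inactivation centre, had 1.43 ± 1.36 and 10.7 ± 5.09 RPKM. In this list 1 of 5 members passed along the medial-lateral coordinate (Malat1, lower) and none along the dorsal-ventral or anterior-posterior coordinate or in the 5-term test described below. Neat1 had a medial-lateral slope of -0.45 and Miat of -0.21, with edgeR adjusted p = 0.163 and 0.538. Within sections Malat1 had r = 0.43 with Neat1 and 0.46 with Miat. Of the 15 nuclear-body protein genes listed for comparison, such as Nono, Sfpq and Srsf1, none passed on an axis or in the 5-term test. Their summed level had medians of 3631, 3627 and 3403 CPM at low, middle and high medial-lateral coordinates.

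A 5-term test asked for any smooth pattern within sections, with both coordinates, their squares and their product tested together. In it 3 of 151 members passed (1.99%), beside 2.03% of all genes tested: Lhx1os, D930028M14Rik and Gm9866. At an unadjusted p under 0.05 there were 13 members (8.61%), against 10.7% of all genes. Along the dorsal-ventral coordinate alone no member passed edgeR's test, beside 0.793% of all genes tested. There, 12 members had an unadjusted p under 0.05 (7.95%, against 8.46% of all genes), and DESeq2 called 3, beside 1.33% of all genes, namely Lhx1os, D930028M14Rik and Dubr. The median dorsal-ventral slope was 0.03 over members and 0.00 over all genes.

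Lhx1os (chr11:84525660-84535831, plus strand) starts 125 bases from the start of Lhx1, which runs the other way. Lhx1 encodes a LIM homeodomain transcription factor that SCN neurons need for the expression of coupling peptides such as Vip. The bases between their starts are shown because both genes begin at its ends: capitals mark the 124 bases between the annotated starts, and the lower-case bases are the first 50 of Lhx1os. The sequence is from RefSeq's promoter table for GRCm38.p6, plus strand, chr11:84525536-84525709.

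Lhx1os: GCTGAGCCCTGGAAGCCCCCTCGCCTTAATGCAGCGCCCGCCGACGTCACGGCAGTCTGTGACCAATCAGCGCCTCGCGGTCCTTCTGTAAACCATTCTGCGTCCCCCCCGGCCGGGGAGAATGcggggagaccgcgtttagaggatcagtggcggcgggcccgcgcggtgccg

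The whole 300-base promoter window of Lhx1os is 69.3% G or C, against a median of 52.7% over all promoter windows in that table. Windows were found for 76 members (99 windows). The clock-related motifs CACGTG (E-box), TGACGTCA (cAMP response element) and TTATGTAA (D-box), searched on both strands, occur in 9, 5 and 2 of the 99 and in 7.15%, 1.79% and 0.938% of all 32851 windows. None of the windows of Lhx1os, Malat1, Gm9866, D930028M14Rik and 5330434G04Rik holds one of these motifs.

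Lhx1os and Lhx1 were found in mostly the same hexagons. Both had counts in 70 hexagons, only Lhx1os in 3, only Lhx1 in 2 and neither in 7, with 3354 and 2885 counts in all. Each was found in most hexagons, so many shared hexagons are expected without any relation. Lhx1os was at 0 in 9 of 82 hexagons and in 5 of the 77 that are not low-depth. For Lhx1 these numbers were 10 and 7. In the 8 section sums Lhx1os had 37.8, 21.5, 13.1, 30.0, 92.7, 120, 71.9 and 74.8 CPM from section 1 to section 8. Lhx1 had 28.7, 48.0, 14.5, 48.1, 79.9, 108, 50.9 and 43.6 CPM in the same order. Both were lowest in section 3 and highest in section 6. Sections 5 to 8 were all above sections 1 to 4 for Lhx1os, while for Lhx1 the groups overlap. Both also had their highest hexagon in common, replicate 7 of section 6, with 218 CPM of Lhx1os and 250 CPM of Lhx1.

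**Figure D3:**
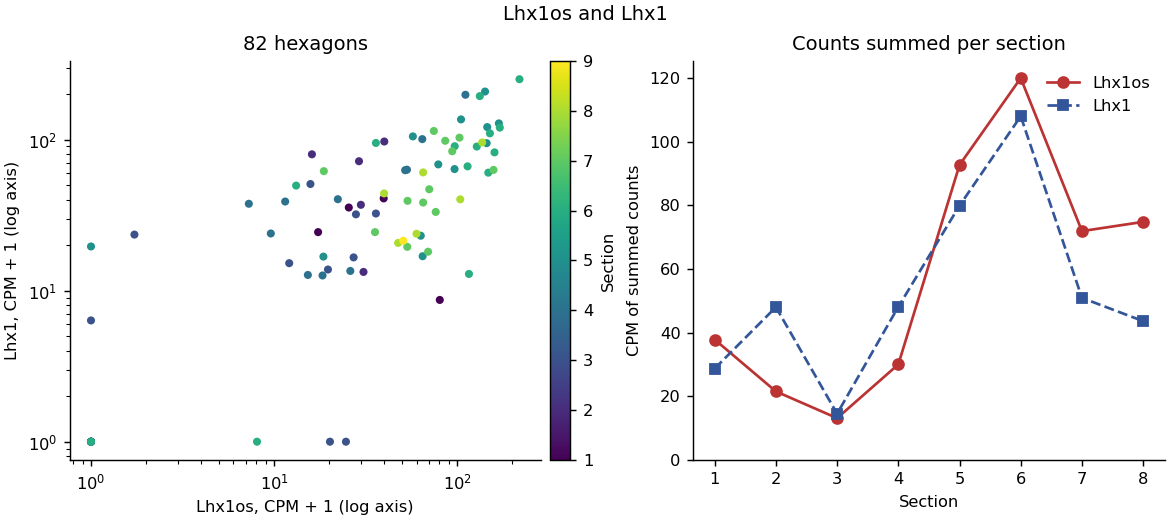
Left, Lhx1os against Lhx1 in 82 hexagons as CPM + 1 on log axes, coloured by section. Right, CPM of both genes in counts summed per section for sections 1 to 8. Both lines are lowest in section 3 and highest in section 6, at 120 CPM for Lhx1os and 108 CPM for Lhx1.

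With section means removed, Lhx1 was the gene most like Lhx1os of all those tested, with r = 0.71, and ranked 3 without the low-depth libraries (r = 0.63). Spon1, an extracellular matrix gene, followed with 0.69 (0.64 without them). Vip had r = 0.54 (0.45 without them). Along the medial-lateral coordinate Lhx1os ran from 0 to 147 CPM (median 63.5) at low, 0 to 218 (median 51.6) at middle and 0 to 170 (median 19.2) at high values. Its slopes were 0.30 (SE 0.09) along the dorsal-ventral, -0.41 (SE 0.14) along the medial-lateral and 0.66 (SE 0.24) along the anterior-posterior coordinate, with edgeR adjusted p = 0.119, 0.134 and 0.211. Those of Lhx1 were 0.35, -0.56 and 0.37, with adjusted p = 0.0829, 0.0571 and 0.442. In the 5-term test the edgeR adjusted p was 0.0165 for Lhx1os and 5.60e-04 for Lhx1. Lhx1os lost this call when section 4, 5 or 6 was left out, when library set was added (adjusted p = 0.107) and without the low-depth libraries (adjusted p = 0.0558).

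D930028M14Rik (chr7:25152457-25156627, plus strand) lies inside Pou2f2, on the opposite strand and with no exon overlap. Its median was highest at high dorsal-ventral coordinates. At low values (301 to 578, 27 hexagons) it ran from 0 to 48.2 CPM with a median of 3.97, and 12 hexagons were at 0. In the middle (579 to 739, 28 hexagons) it ran from 0 to 127 CPM with a median of 6.71, and 5 were at 0. At high values (743 to 917, 27 hexagons) it ran from 0 to 100 CPM with a median of 34.4, and 2 were at 0. The ranges overlap, since each group has hexagons at 0. Its 5-term adjusted p was 0.0330 by edgeR, while its dorsal-ventral slope of 0.49 (SE 0.14, positive in 7 of 8 sections) had an adjusted p of 0.0707. The 5-term call ended on leaving out section 3, 4, 6 or 7, on adding library set (adjusted p = 0.136) and without the low-depth libraries (adjusted p = 0.108), one of which holds its highest value of 127 CPM.

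Pou2f2, an octamer-binding transcription factor gene, had a dorsal-ventral slope of 0.44, close to that of D930028M14Rik, and a medial-lateral slope of -0.30, against 0.25 for the lincRNA. Their r within sections was 0.26, and 0.27 without the low-depth libraries. The strand setting of the counting is not known, so reads from Pou2f2 introns could count as D930028M14Rik. This was not tested. Gm9866 had a 5-term adjusted p of 0.0383 by edgeR, lost when any one of sections 1 to 7 was left out, with library set as a factor (adjusted p = 0.229) and without the low-depth libraries (adjusted p = 0.0636). SCN markers had summed medians of 3390, 3850 and 4352 CPM at low, middle and high dorsal-ventral coordinates, and 1 of 11 passed there (Vip, higher). Their part in the patterns of Lhx1os and D930028M14Rik was not tested.

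**Figure D4:**
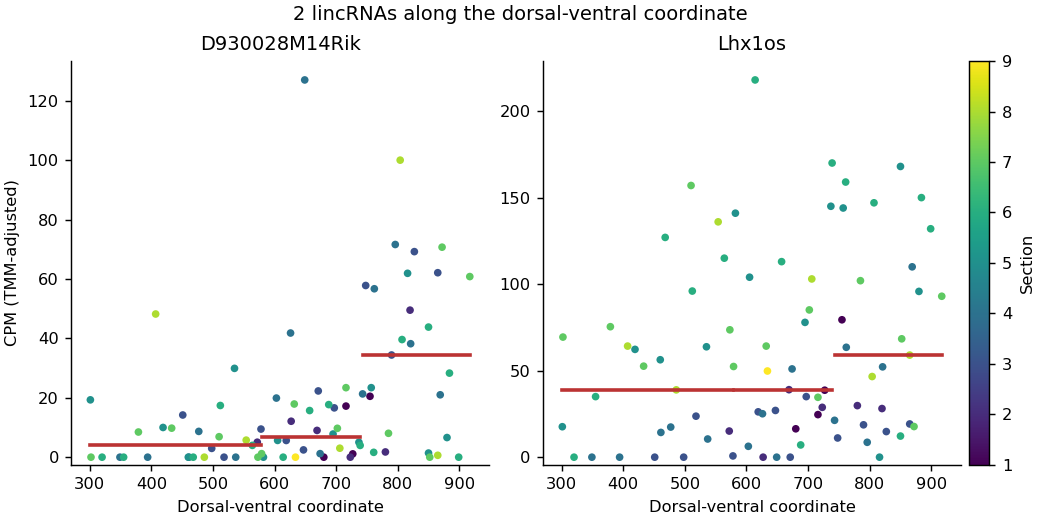
CPM of D930028M14Rik and Lhx1os in each of 82 hexagons (points, coloured by section) against the dorsal-ventral coordinate, with red bars at the median of the hexagons of low, middle and high coordinate. The medians of D930028M14Rik rise from 3.97 to 34.4 CPM, with hexagons at 0 in every group.

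Along the anterior-posterior coordinate 1 of 151 members passed (0.662%), beside 0.244% of all genes tested and 0.131% that were lower. Counts were summed per section for the 8 sections with 4 or more hexagons. On simulated data this fit made more false calls than its threshold allows, so a call from it alone is weak. At an unadjusted p under 0.05 there were 27 members (17.9%, against 16.7% of all genes), 8 higher (8.31% of all genes) and 19 lower (8.36% of all genes). DESeq2 called 10 members, beside 3.89% of all genes. The median slope was -0.02 over members and 0.01 over all genes.

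That member was 5330434G04Rik (chrX:105348282-105391776, minus strand), whose section sums were lower in the later sections. In the section sums it had 220, 215, 192, 190, 156, 113, 121 and 96.9 CPM. Sections 1 to 3 had 209 ± 14.9 CPM (SD, n = 3 sections) and sections 6 to 8 had 110 ± 12.2 CPM (n = 3 sections), with no overlap. Single hexagons overlapped, from 83.5 to 261 CPM in section 3 and from 51.4 to 218 CPM in section 7. Fitted over hexagons, edgeR gave a slope of -0.32 with adjusted p = 5.48e-04. That p is too small, because all hexagons of a section share this coordinate and are treated as separate. On the section sums the slope was -0.36 (SE 0.06, edgeR adjusted p = 0.0230). The call was lost without section 1, 2, 6 or 7, and in limma on section means weighted by the number of hexagons (slope -0.37, adjusted p = 0.144). With library set as a further factor over hexagons, which leaves only differences between sections that share a set, the slope was 0.12 (edgeR adjusted p = 1.000), so the direction was not kept. The lone hexagon of section 9 had 183 CPM and is above the sums of sections 5 to 8. The slope of the section sums does not use that hexagon, while both fits over hexagons do.

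**Figure D5:**
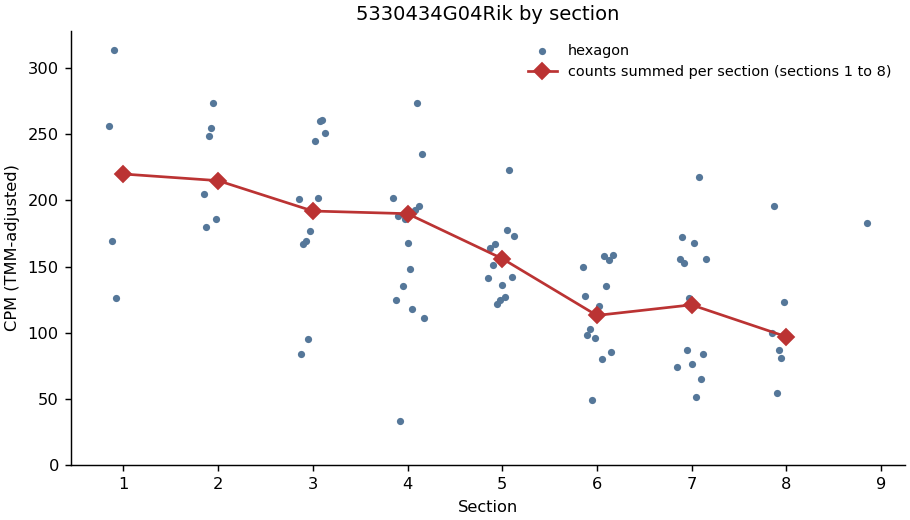
CPM of 5330434G04Rik in each hexagon by section (blue points) and in counts summed per section for sections 1 to 8 (red line). The sums fall from 220 to 96.9 CPM, and the single hexagon of section 9 stands at 183 CPM.

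Meg3, the imprinted lincRNA left out by name, also passed as lower along this coordinate in the section sums (slope -0.38, SE 0.06, edgeR adjusted p = 0.0208). All 7 oligodendrocyte markers had positive anterior-posterior slopes with none passing, with summed medians of 1145 CPM in section 1 and 2117 CPM in section 8. Of the 11 SCN markers 2 had negative slopes and 1 passed as higher, with summed medians of 2757 CPM in section 1 and 4442 CPM in section 8. The part of both lists in the values of 5330434G04Rik was not tested. Fitted over hexagons instead, which treats hexagons of a section as separate, edgeR called 6 members, beside 2.94% of all genes: 5330434G04Rik, Malat1 (slope -0.23), Lncpint (-0.40), an RNA induced by p53, and B830012L14Rik (-0.52) as lower, and Lhx1os (0.73) and 6330403K07Rik (0.15) as higher. With library set added to that fit, none of the 151 members passed.

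The same transcript spans the hairpin of miR-325 on its own strand, and several other members are microRNA precursors. The mature forms from RefSeq for GRCm38.p6 are shown for the hosts described here, with the seed (bases 2 to 8), the part that pairs with targets, in capitals. MiR-9, a regulator of neural progenitors and neurons, is made from 3 members: Gm3764 (chr3:88215613-88215635, plus strand), Mir9-3hg (chr7:79505279-79505301, plus strand) and C130071C03Rik (chr13:83738821-83738843, plus strand). The 3 let-7 forms, which restrain growth and developmental timing, come from 6720427I07Rik (chr13:48532905-48546500, minus strand) and share 1 seed.
mmu-miR-325-3p: uUUAUUGAgcaccuccuaucaa
mmu-miR-9-5p: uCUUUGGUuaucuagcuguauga
mmu-let-7a-5p: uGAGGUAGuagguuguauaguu
mmu-let-7d-5p: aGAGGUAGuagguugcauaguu
mmu-let-7f-5p: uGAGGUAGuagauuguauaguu
mmu-miR-138-5p: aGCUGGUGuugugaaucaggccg
mmu-miR-101a-3p: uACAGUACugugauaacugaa
mmu-miR-129-5p: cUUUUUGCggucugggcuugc

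These libraries count host transcripts and not mature microRNAs. The miR-9 hosts had 5.79 ± 5.51 RPKM for Gm3764, 2.27 ± 2.92 for C130071C03Rik and 1.66 ± 2.52 for Mir9-3hg (SD, n = 82), which do not differ beyond their spread. Within sections r was 0.32 between Mir9-3hg and Gm3764, 0.13 between Mir9-3hg and C130071C03Rik and 0.10 between C130071C03Rik and Gm3764. The let-7 host 6720427I07Rik had 3.41 ± 5.81 RPKM, C78859, which holds miR-138-2, had 2.77 ± 2.48, and E130102H24Rik, which holds miR-101a, had 6.37 ± 7.99. Mir124a-1hg and Mir124-2hg, hosts of the neuronal miR-124, had 5.14 ± 3.95 and 5.51 ± 3.93 RPKM. Of the 5 microRNA hosts in the list, none passed on an axis or in the 5-term test.

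Mir670hg (chr2:94160636-94264918, minus strand), which holds miR-129-2 and miR-670, came nearest along the medial-lateral coordinate. It ran from 0 to 46.9 CPM (median 20.4) at low, 0 to 81.9 (median 12.5) at middle and 0 to 44.6 (median 7.68) at high values. Its slope was -0.63 (edgeR adjusted p = 0.0748), and DESeq2 gave -0.66 with adjusted p = 0.0118.

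The small nucleolar RNA hosts Snhg10, Snhg12 and Snhg20 had 10.7 ± 9.79, 5.64 ± 4.46 and 7.78 ± 5.63 RPKM, and none of the 3 passed a test. Among the neural and developmental RNAs, Pantr1, which lies beside the neural transcription factor gene Pou3f3, had 1.70 ± 1.91 RPKM and no call, and Lhx1os had the 5-term call given above. Among 4 general and growth-related members Norad passed along the medial-lateral coordinate and 1700020I14Rik (11.7 ± 7.21 RPKM), Lncpint (9.56 ± 7.11) and Pvt1 (0.508 ± 0.950), which lies beside the Myc gene, passed nothing.

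Of the members, 114 have a nearest coding gene that was also tested. Over these pairs the median r within sections was 0.13, and 0.08 without the low-depth libraries. Over all pairs of a member and a coding gene it was 0.08 and 0.02. Among 16 pairs with divergent starts within 1 kb it was 0.17 and 0.08. Lhx1os with Lhx1 was the highest pair of all. The next, Gm10076 with Spry2 at 0.67, fell to -0.08 without the low-depth libraries, and B230209E15Rik with Ndn went from 0.59 to -0.05.

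Pairs that kept their r were lower. Gm4593 and D7Ertd443e had 0.41, and 0.40 without the low-depth libraries. Gm26709 lies 908 bases from Six6, a homeobox gene needed for the SCN to form, and had r = 0.36 with it (0.32 without the low-depth libraries). Gm28258, near the nuclear receptor gene Nr2f2, had 0.35 (0.36 without them), and an exon of Gm28258 overlaps another noncoding transcript on the opposite strand.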

How the data were processed

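The authors deposited a table of whole-number counts for 27515 genes and a table of RPKM values with gene types, lengths and symbols. Per the submitters' processing notes, bcl2fastq 2, STAR and GRCm38 were used in roles not stated. For the counting program, its strand setting and its annotation, no source used here gives a name. All 82 columns were mapped to hexagons by their labels. The members and lists were chosen with earlier results of these data known.

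The detection rule of the members, applied to all genes, left 11469 for testing. All 151 members pass by construction, and a member seen in few hexagons can pass by being high in one place, so counts and medians over members support nothing by themselves. Dorsal-ventral, medial-lateral and 5-term tests used edgeR 4.0.16 (quasi-likelihood, robust, TMM scaling, R 4.3.3) over 82 hexagons with section as a factor. The anterior-posterior slope used counts summed per section. P-values were adjusted by Benjamini-Hochberg over all genes tested. CPM values use TMM-adjusted library sizes. A standard error is the slope divided by the square root of its F statistic. Correlations are Pearson's r of log2(CPM + 1) after section means were removed. Scripts were tested on simulated data for the dorsal-ventral, medial-lateral and anterior-posterior slopes of edgeR, with each hexagon drawn independently. There the anterior-posterior fit on section sums made more false calls than its threshold allows, and the dorsal-ventral and medial-lateral fits did not. The 5-term test, DESeq2, limma and the anterior-posterior fit over hexagons were not simulated. Depth is the total count per library, and low counts limit the precision of scarce members.

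Named are members that passed a test, members of the role lists, the 10 of highest mean RPKM, those at the edge of the detection rule, and the 5 of highest and 5 of lowest dispersion. Other members were chosen after their values were seen. Positions and exon overlaps come from GENCODE M21 on GRCm38, matched on gene ID without version, and sequences from it or from RefSeq (GRCm38.p6). Alternatives covered scaling, filters, DESeq2 1.42.0, limma 3.58.1, library set, low-depth libraries and each section left out. Leaving out the ribosomal RNA locus genes Gm42418 and Gm26917, limma on weighted section means, and library set in the anterior-posterior fit over hexagons were added after seeing the data.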

Additional observations from a re-analysis of the deposited data

Results flagged for a closer look

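D930028M14Rik stood apart in 1 hexagon of section 2. Replicate 3 had 49.5 CPM, the next of the 6 hexagons had 12.1 CPM, and this gap was 0.756 of the whole range of the section. In all, 18 groups were examined, each the hexagons of 1 section that holds 4 to 10 of them, over the 6 members that passed a test. Chance flags about 1 in 20 groups.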

How the results depend on the processing

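Which members passed depended on the fit. Leaving out 1 section at a time gave 0 to 2 members along the dorsal-ventral, 0 to 3 along the medial-lateral, 0 to 4 in the 5-term and 0 to 2 along the anterior-posterior test. DESeq2 called 3, 6 and 10 members along the dorsal-ventral, medial-lateral and anterior-posterior coordinates, where edgeR called 0, 3 and 1. Without a filter on low counts edgeR called 2 members along the dorsal-ventral coordinate, 5 along the medial-lateral and 7 in the 5-term test. The number of genes tested then was larger than 11469 and is not given here, so no share of all genes stands beside these counts. With library set as a factor 0 members passed along the medial-lateral coordinate and 0 in the 5-term test, and without the low-depth libraries 1 and 0. Along the anterior-posterior coordinate 6 passed over hexagons and 0 in limma on weighted section means, where section sums hold unequal numbers of hexagons. With library set as a factor over hexagons it was 0 members and 0 genes, with 0 members and 408 genes at an unadjusted p under 0.05. In the fit over hexagons the slope of 5330434G04Rik turned from -0.32 without library set to 0.12 with it.

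For all genes the counts were 91, 158, 233 and 28 in the dorsal-ventral, medial-lateral, 5-term and anterior-posterior tests. They ran from 47 to 138, 31 to 187, 85 to 279 and 1 to 79 with a section left out, and were 628, 818, 3581 and 73 without the filter. DESeq2 gave 152, 346 and 446 for the 3 slopes. With library set as a factor the medial-lateral and 5-term counts were 14 and 140. Over hexagons the anterior-posterior count was 337, and limma gave 10. Under the other alternatives run, the medial-lateral slopes of Malat1, Norad and Gm9866 and the anterior-posterior slope of 5330434G04Rik kept their sign. The 5-term test has no sign. The cause of these changes was not tested. Low counts limit the scarce members, and 59 of 151 had under 500 counts in all. No paired analysis was possible because replicate numbers were given here in accession order and only name hexagons, and nothing in the labels pairs hexagons across sections.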

Other observations

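The member most like the shell peptide gene Avp was 9330185C12Rik (chr1:113891385-113964134, minus strand), a spliced transcript far from any coding gene, chosen after its values were seen. Of all genes tested, Avp was the one most like it within sections, with r = 0.61 over 82 hexagons and 0.59 over the 77 that are not low-depth. It was at 0 CPM in 20 hexagons. It had medians of 11.1, 12.5 and 4.53 CPM at low, middle and high dorsal-ventral coordinates, where Avp had 418, 226 and 177 CPM. Neither passed edgeR's dorsal-ventral test (slopes -0.21 and -0.27, adjusted p = 0.873 and 0.402). Its highest hexagon, replicate 12 of section 5 with 74.3 CPM, is a low-depth library. Another member, 3100003L05Rik on chromosome 7, had r = 0.55 with 9330185C12Rik and 0.42 with Avp.

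Of the 19 members on chromosome 7, 5 lie between Ube3a and Mkrn3, the imprinted region linked to Prader-Willi syndrome, all on the minus strand. They are Gm44644 (10.5 RPKM), A230006K03Rik (14.9), B230209E15Rik (55.3), one of the genes named A230057D06Rik (14.8, ENSMUSG00000109394) and Gm9801 (18.2), again chosen after their values were seen. None passed on any axis by edgeR, with slopes from -0.19 to 0.08. The A230057D06Rik gene spans several miR-344 hairpins, whose 5p forms miR-344b, miR-344c and miR-344 share the seed GUCAGGC. Their r with Snrpn changed with the low-depth libraries, from 0.77 to 0.01 for B230209E15Rik and from 0.44 to 0.04 for A230006K03Rik.

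In 1 hexagon several nuclear RNAs were highest together. Replicate 1 of section 1 held the highest CPM of 9 of 151 members, among them Malat1 (10806 CPM), Neat1 (286), Miat (252), Lncpint (315), Mir670hg (81.9) and Pantr1 (43.1). The other 3 hexagons of section 1 had 3037 to 5884 CPM of Malat1, 0 to 15.4 of Neat1, 4.93 to 71.7 of Miat and 46.8 to 65.6 of Lncpint. Meg3 was highest there too, at 6434 CPM. Only replicate 11 of section 7 held the highest value of more members, with 10, among them Norad (1278 CPM) and Gm9866 (104 CPM). How many of all genes tested were highest in these hexagons was not counted. The numbers of members therefore show nothing particular to lincRNAs.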
